A study of Homo sapiens with 18 samples.

Results

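The contrast described here set 3 libraries of irradiated, senescent human fibroblasts depleted of their mitochondria, named Sen(IR)+CCCP, against 3 libraries of irradiated, senescent fibroblasts that kept them, named Sen(IR). These are 6 of the 18 RNA-seq libraries of the series and were taken by their labels. Of 57500 genes in the table, 16994 passed the filter on low counts over the 18 libraries and were tested, and every one of them counts here whether it rose, fell or did neither. All cells were IMR90, a fibroblast line from human fetal lung, engineered so that CCCP triggers removal of their mitochondria. CCCP is a protonophore that collapses the mitochondrial membrane potential. Both groups were X-ray irradiated, and the Sen(IR)+CCCP cells additionally received CCCP in the days after irradiation and were harvested after it had been withdrawn. The other 4 groups, used here only for levels, were proliferating cells (Prol) and depleted cells supplemented with acetate, with mtDNA or with both. The design is limited to 1 cell line, and it holds no cells given CCCP without removal of mitochondria, so the agent and the loss of the organelle cannot be told apart. The labels do not say whether replicates came from separate cultures, and the study describes its replicate numbers as counts of independent experiments, so the p-values measure the spread between these libraries.

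Senescent cells have left the cell cycle for good, stay metabolically active, secrete inflammatory and matrix-remodelling proteins and often carry many poorly working mitochondria. Mitochondria supply respiration, but also aspartate, one-carbon units, citrate for lipid and acetyl groups, and iron-sulphur clusters. Their failure is known to be signalled to the nucleus through the integrated stress response, in which the translation of ATF4, a transcription factor for amino acid synthesis, is favoured while general translation falls.

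Counts on genes ranged from 28434566 to 46224280 per Sen(IR) library and from 24624886 to 35655026 per Sen(IR)+CCCP library. Levels are given as CPM, counts scaled to library sizes corrected by TMM, and per length as the deposited TPM. TPM ran higher after depletion for most genes, with a median log2 ratio of 0.453 over all genes tested against 0.026 in the fit of counts, so TPM differences are read against that shift. Mean TPM was higher after depletion for 73.4% of genes, against 51.6% with a fold change above 0 in the fit, and 1502 genes called lower had a higher mean TPM. Where called members of a list turn in this way, their number is given with the list, and no listed gene called higher had a lower TPM. An upward shift by itself turns small falls and cannot turn rises. These numbers therefore mark small falls and do not test the calls. Fold changes and adjusted p-values come from edgeR's quasi-likelihood test, and ± marks the standard error of the fit. Sen(IR) replicate 3 stood apart from its group: a chi-square per gene of 24.1 and 19.6 separated it from replicates 1 and 2, which differed from each other by 3.09, and the Sen(IR)+CCCP pairs lay at 2.84 to 3.39. The 13 protein genes of mtDNA took 1.94%, 1.75% and 2.64% of counts in the Sen(IR) libraries and 0.136%, 0.118% and 0.114% in the Sen(IR)+CCCP libraries, so the label of every library matched the state of its mtDNA transcripts. Without Sen(IR) replicate 3 the fit called 5667 genes higher and 5198 lower.

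Between Sen(IR)+CCCP and Sen(IR), most of the transcriptome differed by small amounts and a minority by large ones, and the large changes were mostly falls. In the fit of all 18 libraries, 5776 genes were higher in Sen(IR)+CCCP (34.0% of those tested) and 5312 were lower (31.3%) at an adjusted p under 0.05, 65.2% in either direction. By 2-fold or more, 1307 were higher (7.69%) and 1828 lower (10.8%). The 2 groups did not overlap in CPM for 11504 genes (67.7%). The median log2 fold change was 0.026, and 80.5% of genes stayed within 2-fold. The balance tipped as the size grew: 221 genes rose and 557 fell by 4-fold or more, 44 rose and 237 fell by 8-fold or more, and 10 rose and 127 fell by 16-fold or more. The most abundant transcripts, above 8 on the log2 CPM scale, fell more often than they rose, with 56.1% lower and 27.6% higher of 742. As a description of their size, since their direction chose them, genes lower by 2-fold or more held 29.4% to 31.3% of all TPM in the Sen(IR) libraries and 8.67% to 8.83% in the Sen(IR)+CCCP libraries, and genes higher by 2-fold or more held 1.24% to 1.299% and 4.49% to 4.65%. The mtDNA protein genes are among the former, with a summed level of 92993 to 130790 TPM in the Sen(IR) libraries and 6821 to 7987 TPM in the Sen(IR)+CCCP libraries.

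**Figure D1:**
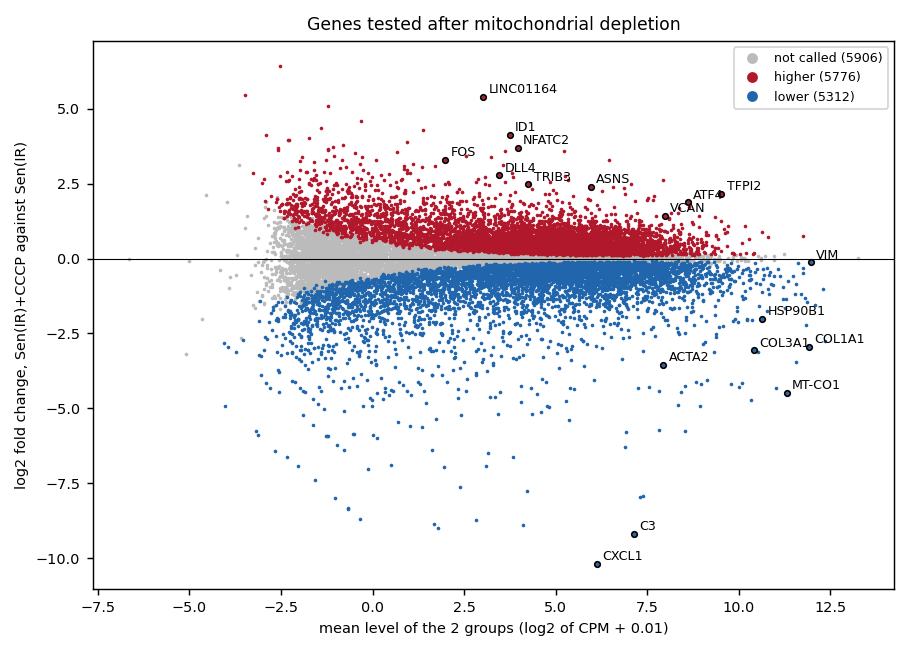
Log2 fold change of each tested gene in Sen(IR)+CCCP against Sen(IR), by its mean level in the 2 groups (log2 of CPM + 0.01), with genes called higher in red, lower in blue and not called in grey. Falls reach below -10 (CXCL1), whereas the named rises end at 5.41 (LINC01164).

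The genes of the integrated stress response rose as a group. Of 29 tested members of a list of 30, 25 were higher, 2 were lower (1 of them higher in TPM) and 2 did not pass, beside 34.0% higher and 31.3% lower among all genes, and 15 rose by 2-fold or more. The median of the list was 1.01 on the log2 scale, against 0.026 for all genes. ATF4, the factor at the centre of the response, was at 173, 169 and 155 CPM in Sen(IR) and 596, 613 and 621 CPM after depletion (log2 fold change 1.88 ± 0.062, adjusted p = 2.47e-16). Every depleted library lay above every Sen(IR) library. ASNS, which makes asparagine, was at 21.2, 20.3 and 17.9 CPM in Sen(IR) and 108, 106 and 100.3 CPM after depletion (log2 fold change 2.40 ± 0.059, adjusted p = 2.44e-18). PSAT1, an enzyme of serine synthesis, was at 45.1, 41.4 and 34.2 CPM in Sen(IR) and 226, 234 and 213 CPM after depletion (log2 fold change 2.47 ± 0.070, adjusted p = 2.02e-17). The groups did not overlap for either enzyme. TRIB3, a pseudokinase that restrains ATF4, was at 5.45, 5.49 and 6.61 CPM in Sen(IR) and 33.5, 33.5 and 30.1 CPM after depletion (log2 fold change 2.48 ± 0.075, adjusted p = 6.05e-17). DDIT3, a pro-apoptotic transcription factor of the same response, was at 22.5, 23.3 and 22.7 CPM in Sen(IR) and 67.2, 61.2 and 61.3 CPM after depletion (log2 fold change 1.47 ± 0.057, adjusted p = 2.39e-15). Both were higher in every depleted library than in any Sen(IR) library. SLC7A11, the cystine importer, rose with a log2 fold change of 1.70 and PHGDH, the first enzyme of serine synthesis, with 1.86. STC2, a secreted glycoprotein that ATF4 can induce, went the other way, at 2664, 2738 and 2185 CPM in Sen(IR) and 1378, 1393 and 1386 CPM after depletion (log2 fold change -0.87 ± 0.065, adjusted p = 1.08e-10). It was lower in all 3 depleted libraries. AARS, the alanyl-tRNA synthetase, was at 108, 104 and 90.3 CPM in Sen(IR) and 97.9, 94.1 and 98.2 CPM after depletion, with overlapping groups (adjusted p = 0.4).

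Promoters of these genes are shown because ATF4 and its C/EBP partners are known to bind a composite element in them. The letters TGATGNAA were sought on both strands in the 250 bases before the annotated start (RefSeq, GRCh38.p14). Of 29 tested members 20 had a promoter in the table, and 4 of these (20%) held a match, against 278 of 11160 (2.49%) promoters of tested genes. The 4 stretches run 5′ to 3′ along the gene, with the match in capitals. A match is a description of the letters, not evidence of binding here.
ASNS (chr7:97872449-97872496, minus strand): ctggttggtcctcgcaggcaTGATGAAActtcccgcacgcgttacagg
CEBPG (chr19:33374051-33374098, plus strand): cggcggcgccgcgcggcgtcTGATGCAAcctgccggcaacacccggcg
CHAC1 (chr15:40953242-40953289, plus strand): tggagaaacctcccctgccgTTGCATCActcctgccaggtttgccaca
ATF3 (chr1:212565196-212565243, plus strand): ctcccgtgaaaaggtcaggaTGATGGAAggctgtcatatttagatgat
CEBPG, whose product pairs with ATF4, was at 31.2, 31.3 and 32.3 CPM in Sen(IR) and 112, 113 and 102 CPM after depletion (log2 fold change 1.78 ± 0.050, adjusted p = 1.68e-17). CHAC1, a glutathione-degrading enzyme, was at 10.05, 10.8 and 8.13 CPM in Sen(IR) and 17.6, 18.4 and 17.2 CPM after depletion (log2 fold change 0.88 ± 0.089, adjusted p = 1.46e-08). ATF3, a stress-induced repressor, was at 64.1, 66.6 and 64.2 CPM in Sen(IR) and 179.6, 187 and 161 CPM after depletion (log2 fold change 1.44 ± 0.099, adjusted p = 2.39e-11). All 4 genes with a match were higher in each depleted library than in any Sen(IR) library. Beside this, 25 of the 29 tested members were called higher, and the groups did not overlap for 67.7% of all genes. Whether members with a match rose more than the others was not tested.

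The chaperones of the endoplasmic reticulum, which fold secreted proteins, fell. All 16 of 16 members were lower (31.3% lower among all genes), with DNAJC3 alone higher in TPM, 9 of them by 2-fold or more, with a median log2 fold change of -1.13. HSP90B1, the reticulum's HSP90, was at 2874, 2665 and 2127 CPM in Sen(IR) and 630.1, 647 and 621 CPM after depletion (log2 fold change -2.01 ± 0.096, adjusted p = 6.35e-14). HSPA5 (BiP), its main HSP70, was at 1785, 1728 and 1371 CPM in Sen(IR) and 671, 677 and 629 CPM after depletion (log2 fold change -1.30 ± 0.096, adjusted p = 7.61e-11). CALR, a lectin chaperone, was at 2486, 2460 and 1861 CPM in Sen(IR) and 754, 748 and 759 CPM after depletion (log2 fold change -1.59 ± 0.094, adjusted p = 1.93e-12). For all 3 the lowest Sen(IR) library was replicate 3, and it still lay above every depleted library. The smallest change was that of DNAJC3, a co-chaperone, with a log2 fold change of -0.34. The cytosolic heat shock list moved less: 1 was higher and 6 lower of 10, 2 of the 6 being higher in TPM, led by HSPB1, a small heat shock protein (log2 fold change -1.95 ± 0.098, adjusted p = 1.35e-13).

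Many of these promoters hold the ER stress element, so those of 4 members are shown. Its letters, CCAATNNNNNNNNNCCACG, were found on either strand in 7 of 15 promoters of the list that were in the table (46.7%) and in 16 of 11160 promoters of tested genes (0.143%), a number that includes the 7. The first match is in capitals.
HSPA5 (chr9:125241371-125241429, minus strand): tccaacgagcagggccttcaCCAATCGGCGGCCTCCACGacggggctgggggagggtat
HSP90B1 (chr12:103930196-103930254, plus strand): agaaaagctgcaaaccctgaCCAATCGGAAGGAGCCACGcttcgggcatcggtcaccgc
PDIA6 (chr2:10812833-10812891, minus strand): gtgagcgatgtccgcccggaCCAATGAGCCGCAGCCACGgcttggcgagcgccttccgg
CRELD2 (chr22:49918534-49918592, plus strand): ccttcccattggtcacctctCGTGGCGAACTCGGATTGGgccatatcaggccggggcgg
The others with a match were CALR, CANX and XBP1. PDIA6, a disulphide isomerase, was at 578, 566 and 435 CPM in Sen(IR) and 238, 244 and 241 CPM after depletion, and CRELD2, a secreted stress-induced factor, at 38.4, 40.3 and 28.3 CPM in Sen(IR) and 12.99, 13.6 and 13.8 CPM after depletion. XBP1, a transcription factor of the unfolded protein response, had a log2 fold change of -0.55, and CANX, the membrane-bound lectin chaperone, of -0.59.

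**Figure D2:**
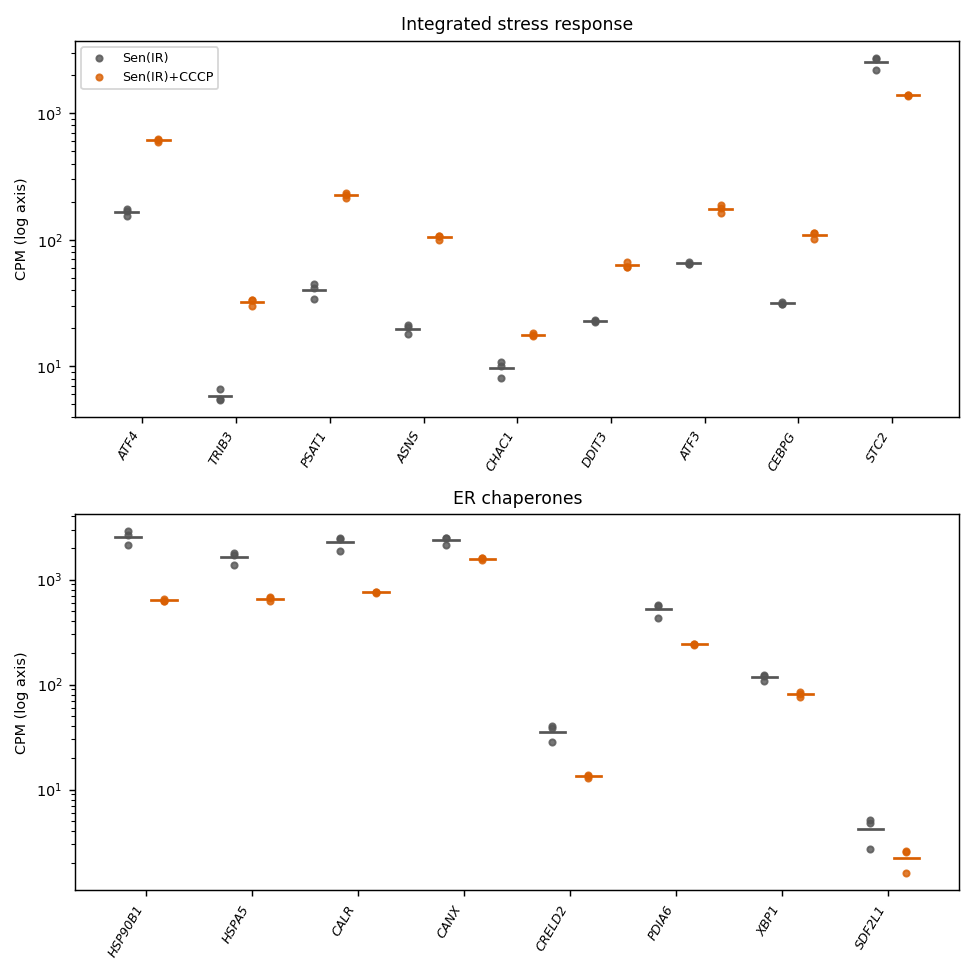
CPM (log axis) of integrated stress response genes (top) and chaperones of the endoplasmic reticulum (bottom) in each library, with a line at the mean of 3 Sen(IR) (grey) and 3 Sen(IR)+CCCP (orange) libraries. ASNS and HSP90B1 moved in opposite directions with no overlap of the groups, and STC2 fell among the genes that rose.

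Transcripts of extracellular matrix genes were reduced broadly, with a few members rising. Of 32 tested collagens among 44 listed, 24 were lower, 4 were higher and 4 did not pass (31.3% lower and 34.0% higher among all genes), 3 of the lower ones being higher in TPM, with 15 lower by 2-fold or more and a median log2 fold change of -0.73. COL1A1, a chain of type I collagen, was at 7229, 7304 and 5860 CPM in Sen(IR) and 903, 828 and 901 CPM after depletion (log2 fold change -2.95 ± 0.092, adjusted p = 1.01e-16). COL3A1, which makes type III collagen, was at 2677, 2524 and 2079 CPM in Sen(IR) and 279, 255 and 333 CPM after depletion (log2 fold change -3.07 ± 0.19, adjusted p = 5.58e-12). COL14A1, a fibril-associated collagen, was at 13.3, 9.52 and 10.5 CPM in Sen(IR) and 0.753, 0.656 and 0.653 CPM after depletion (log2 fold change -4.02 ± 0.29, adjusted p = 4.76e-11). For these 3 genes every depleted library lay below every Sen(IR) library. The other way went COL6A3, a chain of the microfibrillar type VI collagen, at 2609.8, 2484 and 2618 CPM in Sen(IR) and 4118, 4416 and 4322 CPM after depletion (log2 fold change 0.74 ± 0.060, adjusted p = 3.73e-10), and COL15A1, of the basement membrane zone (log2 fold change 0.77 ± 0.084, adjusted p = 3.52e-08). Of 28 tested glycoproteins and proteoglycans among 30 listed, 23 were lower (1 of them higher in TPM) and 1 higher, with a median of -1.16. The 1 that rose was VCAN, a large hyaluronan-binding proteoglycan, at 135, 129 and 149 CPM in Sen(IR) and 358, 377 and 368 CPM after depletion (log2 fold change 1.42 ± 0.054, adjusted p = 2.04e-15). POSTN, a matricellular protein, was at 18.8, 18.1 and 16.9 CPM in Sen(IR) and 1.28, 1.24 and 2.18 CPM after depletion (log2 fold change -3.56 ± 0.22, adjusted p = 3.50e-12). FBN1, the microfibril protein, was at 678, 651 and 707 CPM in Sen(IR) and 653, 687 and 662 CPM after depletion and did not pass (adjusted p = 0.73). Proteases and their inhibitors were lower in 18 of 24 (2 of them higher in TPM) and higher in 2, with a median of -0.88, from MMP12, the macrophage elastase (-4.19), to MMP16, a membrane-bound protease (1.20).

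Contractile genes, which mark myofibroblasts and smooth muscle, were lower, by a larger median than the matrix lists. Of 16 members 14 were lower and none was higher (31.3% and 34.0% among all genes), 12 fell by 2-fold or more, and the median log2 fold change was -2.20. In these bulk libraries fewer cells of a kind and less RNA per cell cannot be told apart. ACTA2, smooth muscle α-actin, was at 467, 466 and 417 CPM in Sen(IR) and 35.8, 38.8 and 41.3 CPM after depletion (log2 fold change -3.54 ± 0.16, adjusted p = 2.63e-14). ACTG2, the enteric γ-actin, was at 667, 658 and 561 CPM in Sen(IR) and 21.9, 20.3 and 20.9 CPM after depletion (log2 fold change -4.90 ± 0.23, adjusted p = 6.14e-14). LMOD1, an actin filament nucleator, was at 78.2, 78.4 and 69.1 CPM in Sen(IR) and 2.704, 2.42 and 3.45 CPM after depletion (log2 fold change -4.74 ± 0.23, adjusted p = 6.49e-14). For all 3 the highest depleted library lay far below the lowest Sen(IR) library. TAGLN2, a relative of the smooth muscle transgelin, was at 278, 292 and 264 CPM in Sen(IR) and 279.5, 285 and 278 CPM after depletion (adjusted p = 0.788), and TGFB1, the cytokine that drives contractile genes, at 53.1, 52.6 and 48.6 CPM in Sen(IR) and 53.05, 52.3 and 53.1 CPM after depletion (adjusted p = 0.586). Neither passed, and the groups overlapped.

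A CArG box, the site of the serum response factor, was found in 2 of the 10 contractile promoters in the table (20%), against 170 of 11160 (1.52%) promoters of tested genes. Both are shown with the first match in capitals.
ACTG2 (chr2:73892878-73892927, plus strand): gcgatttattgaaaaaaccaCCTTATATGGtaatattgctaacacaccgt
MYLK (chr3:123620613-123620662, minus strand): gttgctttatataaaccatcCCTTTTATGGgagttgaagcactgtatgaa
MYLK, the myosin light chain kinase, fell far less than ACTG2, from 921, 950.1 and 1074 to 627, 683 and 689 CPM (log2 fold change -0.56 ± 0.063, adjusted p = 6.96e-08).

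The fibroblast markers were lower as well, though COL1A1, COL1A2 and COL3A1 are also in the collagen list and LUM and DCN in the matrix list. All 10 were lower (31.3% lower and 34.0% higher among all genes), from VIM (-0.12), which was higher in TPM, to COL3A1. Their median was -1.62, and their summed level fell from between 10199 and 12243 TPM to between 5638 and 5845 TPM. The call of VIM, whose groups overlapped, was lost in 9 of 15 alternative fits. They remained abundant, with PDGFRA, a growth factor receptor, at 413, 367 and 358 CPM in Sen(IR) and 194, 188 and 227 CPM after depletion. Of markers of other cells, all 4 of muscle and pericytes were lower (median -1.46, with DES and MYH11 also in the contractile list), and their summed level went from between 44.4 and 52.8 TPM to between 27.7 and 31.3 TPM. CSPG4, a pericyte proteoglycan, was at 92.5, 97.8 and 74.1 CPM in Sen(IR) and 33.9, 38.6 and 41.01 CPM after depletion. Of 4 tested epithelial markers 3 were lower (1 of them higher in TPM) and none higher, with sums of 51.3 to 63.4 TPM and 47.01 to 50.4 TPM, and KRT19, an epithelial keratin, was at 7.79, 9.75 and 7.302 CPM in Sen(IR) and 0.948, 0.985 and 1.34 CPM after depletion. The 2 tested endothelial markers went opposite ways, KDR, a growth factor receptor, at 0.493, 0.691 and 0.241 CPM in Sen(IR) and 1.42, 1.44 and 1.38 CPM after depletion, and VWF, a clotting protein, at 0.53997, 0.499 and 0.792 CPM in Sen(IR) and 0.195, 0.429 and 0.2903 CPM after depletion, with sums of 0.554 to 0.807 TPM and 1.38 to 1.48 TPM. VWF lost its call in some alternative fits, among them DESeq2's test (adjusted p = 0.053), and DES lost its call in some fits without 1 library. Of 2 tested immune markers 1 was lower, with sums of 3.36 to 4.07 TPM and 1.94 to 2.31 TPM, and of 2 tested neural markers 1 was lower, with sums of 3.4996 to 3.85 TPM and 1.696 to 2.65 TPM. Counts over 2 tested members were not read as results beside the shares of all genes. KRT5 and SOX10 were at 0 in all 6 libraries, and PTPRC, CD3E, CDH5 and CDH1 stayed under 0.33 CPM in each. The part of a change in cell composition in these results was not tested.

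**Figure D3:**
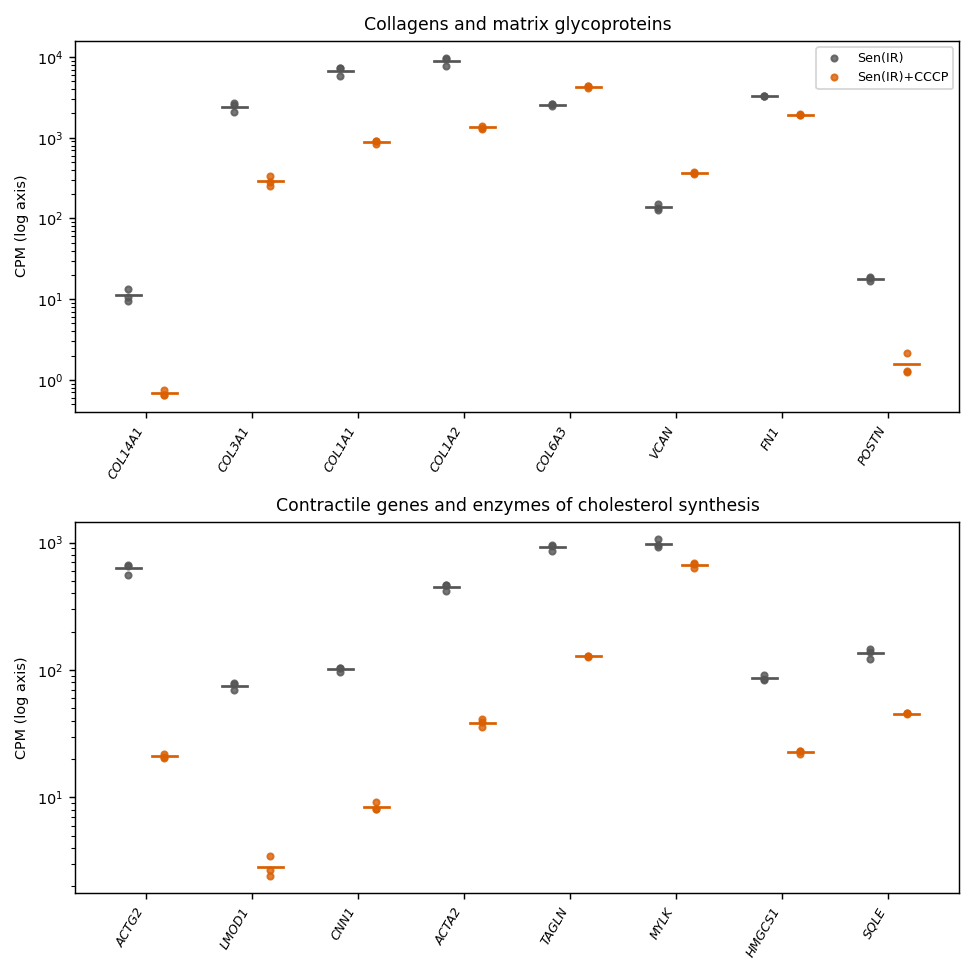
CPM (log axis) of matrix genes (top) and of contractile and cholesterol synthesis genes (bottom) in each library, with a line at the mean of 3 Sen(IR) (grey) and 3 Sen(IR)+CCCP (orange) libraries. COL6A3 and VCAN rose, and the other genes shown fell, ACTG2 the furthest.

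Genes of the cholesterol synthesis list fell. Of 22 members 20 were lower (1 of them higher in TPM), 1 was higher and 1 did not pass (31.3% lower and 34.0% higher among all genes), with 11 lower by 2-fold or more and a median of -0.99. HMGCS1, which makes the pathway's first dedicated precursor, was at 91.8, 84.5 and 83.1 CPM in Sen(IR) and 23.1, 23.3 and 21.8 CPM after depletion (log2 fold change -1.92 ± 0.086, adjusted p = 2.40e-14). SQLE, squalene epoxidase, was at 147, 139 and 121 CPM in Sen(IR) and 44.96, 45.8 and 45.9 CPM after depletion (log2 fold change -1.57 ± 0.068, adjusted p = 1.40e-14). The groups did not overlap for either enzyme. The 1 that rose was EBP, a sterol isomerase (log2 fold change 0.28 ± 0.10, adjusted p = 0.021), a small change whose call was lost without Sen(IR) replicate 3 or without Sen(IR)+CCCP replicate 2. NPC1, which exports cholesterol from lysosomes, went up instead, at 77.3, 84.3 and 70.8 CPM in Sen(IR) and 329, 352 and 311 CPM after depletion (log2 fold change 2.10 ± 0.081, adjusted p = 2.22e-15). This was the largest rise among 30 genes of lysosome and autophagy, of which 22 were lower (6 of them higher in TPM) and 4 higher, with CTSK, a collagen-degrading cathepsin, at 62.8, 59.8 and 54.5 CPM in Sen(IR) and 15.1, 13.3 and 13.8 CPM after depletion (log2 fold change -2.07 ± 0.10, adjusted p = 1.53e-13). Fatty acid synthesis had 8 of 10 genes lower, 5 of these being higher in TPM, and none higher, with FASN, the synthase itself, at 38.8, 38.3 and 38.2 CPM in Sen(IR) and 36.01, 38.6 and 36.6 CPM after depletion (adjusted p = 0.693). Fatty acid oxidation had 10 of 15 lower, 5 of these being higher in TPM, and 2 higher, the larger rise being CPT1A, which admits fatty acids to mitochondria (log2 fold change 0.63 ± 0.059, adjusted p = 4.58e-09). Glycolysis had 10 lower (5 of them higher in TPM) and 5 higher of 22, from PFKP (-0.73), a phosphofructokinase, to SLC2A3 (0.75), a glucose transporter.

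Nuclear genes for mitochondria changed far less than the mtDNA transcripts. The 13 protein genes of mtDNA fell by 4.07 to 4.92 on the log2 scale, for example MT-CO1, a subunit of complex IV, at 4479.9, 4006 and 6025 CPM in Sen(IR) and 238, 207 and 201 CPM after depletion. Copies of mtDNA in the nucleus resemble these sequences, and with uniquely mapped reads only the low counts in depleted cells are uncertain. Beside 31.3% lower and 34.0% higher among all genes, of nuclear subunits, complex I had 18 lower and 7 higher of 37 (median -0.18), complex III had 4 lower and 2 higher of 10 (median -0.12), complex IV had 5 lower and 2 higher of 11 (median -0.11) and complex V had 9 lower and 2 higher of 15 (median -0.22). In TPM, 10 of the 18 lower subunits of complex I and 3 of 4 of complex III were higher. So were 1 of 5 of complex IV and 3 of 9 of complex V. Read against the shift, as list median less the median over all genes, the log2 TPM ratios were close to the fit. They were -0.201 for complex I, -0.145 for III, -0.135 for IV and -0.248 for V. Complex II, which has no mtDNA-encoded subunit, had 1 higher of 4. None of these nuclear subunits fell by 2-fold apart from COX7A1 (-1.86), the muscle-type subunit of complex IV. ATP5F1A, the α-subunit of ATP synthase, was at 422, 428 and 356 CPM in Sen(IR) and 202, 208 and 202 CPM after depletion (log2 fold change -0.98 ± 0.057, adjusted p = 1.56e-12).

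Genes that build and maintain mitochondria leaned upward, beside 34.0% higher and 31.3% lower among all genes. Of 14 genes for mtDNA maintenance and biogenesis 12 were higher and 1 lower (median 0.53), of 16 for import and chaperones 11 were higher and 2 lower (median 0.40), and of 77 mitochondrial ribosomal proteins 38 were higher and 14 lower (median 0.15). In TPM, 1, 2 and 9 of the lower ones were higher. TWNK, the mtDNA helicase, was at 7.58, 7.02 and 7.92 CPM in Sen(IR) and 27.5, 26.6 and 26.96 CPM after depletion (log2 fold change 1.84 ± 0.080, adjusted p = 1.28e-14). PPARGC1A, a coactivator of mitochondrial biogenesis, was low, at 0.6104, 0.2303 and 0.861 CPM in Sen(IR) and 1.84, 1.72 and 2.47 CPM after depletion (log2 fold change 1.77 ± 0.30, adjusted p = 2.22e-05). HSPA9, the matrix HSP70, was at 375, 378 and 324 CPM in Sen(IR) and 562, 579.6 and 541 CPM after depletion (log2 fold change 0.64 ± 0.052, adjusted p = 3.55e-10). Each was higher in every depleted library than in any Sen(IR) library. POLRMT, the mtDNA RNA polymerase, was the 1 called lower in its list (log2 fold change -0.42 ± 0.10, adjusted p = 0.00113). Its log2 TPM ratio of 0.023 lay below the median of 0.453 over all genes. DHODH, the pyrimidine enzyme that feeds electrons into the respiratory chain, led 12 of 15 higher genes of nucleotide and one-carbon metabolism (median 0.31), at 2.75, 2.84 and 3.27 CPM in Sen(IR) and 7.498, 8.11 and 7.04 CPM after depletion (log2 fold change 1.36 ± 0.14, adjusted p = 2.21e-08).

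Genes of DNA replication rose. Of 29 members 26 were higher and none was lower (34.0% and 31.3% among all genes), 9 by 2-fold or more, with a median of 0.89. MCM10, which helps load the replication machinery, was at 3.87, 3.61 and 3.31 CPM in Sen(IR) and 12.3, 12.2 and 13.5 CPM after depletion (log2 fold change 1.81 ± 0.098, adjusted p = 4.97e-13). RFC3, a subunit of the clamp loader, was at 8.73, 10.6 and 7.85 CPM in Sen(IR) and 26.04, 28.6 and 27.7 CPM after depletion (log2 fold change 1.60 ± 0.091, adjusted p = 1.17e-12). Of the list, MCM5, of the replicative helicase, did not pass (adjusted p = 0.71). EXO1, an exonuclease of mismatch repair and end resection, is outside the list and was named for its place among the largest rises. It was at 3.97, 3.3002 and 3.93 CPM in Sen(IR) and 22.8, 26.1 and 26.2 CPM after depletion (log2 fold change 2.73 ± 0.12, adjusted p = 9.84e-15).

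Genes of mitosis were more often higher than lower, with members in both directions. Of 29 members 15 were higher, 3 lower (1 of them higher in TPM) and 11 did not pass, beside 34.0% higher and 31.3% lower among all genes, with a median of 0.40. AURKB, a mitotic kinase, was at 1.95, 1.84 and 1.96 CPM in Sen(IR) and 6.19, 4.62 and 5.99 CPM after depletion (log2 fold change 1.53 ± 0.17, adjusted p = 5.78e-08), and CENPF, a kinetochore protein, at 12.6, 13.8 and 17.1 CPM in Sen(IR) and 38.3, 41.2 and 39.8 CPM after depletion (log2 fold change 1.46 ± 0.11, adjusted p = 8.45e-11). CCNB1, the cyclin that starts mitosis, was at 35.1, 35.5 and 30.8 CPM in Sen(IR) and 18.9, 17.5 and 16.98 CPM after depletion (log2 fold change -0.93 ± 0.084, adjusted p = 2.44e-09). The groups did not overlap for these 3, with AURKB and CENPF higher and CCNB1 lower after depletion. MKI67, a proliferation marker, was at 13.8, 14.4 and 17.8 CPM in Sen(IR) and 28.9, 32.4 and 29.98 CPM after depletion (log2 fold change 1.00 ± 0.11, adjusted p = 9.40e-08), against a mean of 59.1 CPM in Prol. LMNB1, the lamin lost in senescence, was at 8.898, 9.02 and 7.65 CPM in Sen(IR) and 11.8, 14.6 and 13.4 CPM after depletion (log2 fold change 0.64 ± 0.090, adjusted p = 1.77e-06), against 24.04 CPM in Prol. The 2 cyclin-dependent kinase inhibitors that mark senescence changed little or did not pass: CDKN1A was at 982, 1041 and 950.0 CPM in Sen(IR) and 1104, 1131 and 1066 CPM after depletion (log2 fold change 0.15 ± 0.050, adjusted p = 0.0113) and CDKN2A at 6.39, 7.41 and 6.17 CPM in Sen(IR) and 6.77, 6.69 and 5.88 CPM after depletion (adjusted p = 0.789). The call of CDKN1A was lost when only the 6 libraries were fitted (adjusted p = 0.0509).

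Levels in the other groups, given without a test, show where these genes lay. The mean of MCM10 was 6.83 CPM in Prol, 10.1 CPM in depleted cells with mtDNA, 1.79 CPM with acetate and 2.13 CPM with both. CENPF followed the same order of supplements, at 34.6, 6.32 and 7.08 CPM. The mean of ASNS was 116 CPM in Prol, near that of the depleted cells, and 282 CPM with acetate. COL1A1 stayed low in each supplemented group, at 727, 532 and 620.5 CPM, against 15187 CPM in Prol.

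**Figure D4:**
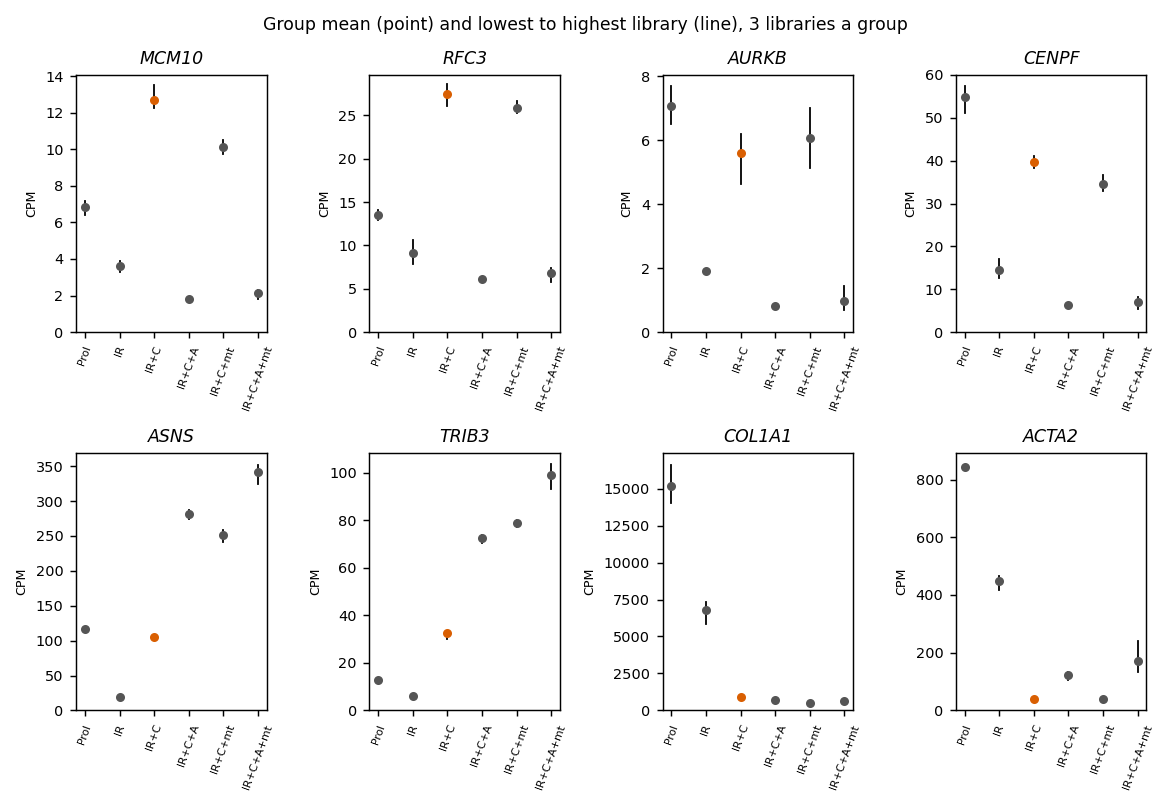
CPM of 8 genes in the 6 groups (Prol, Sen(IR) as IR, Sen(IR)+CCCP as IR+C in orange, and depleted cells with acetate (A), mtDNA (mt) or both), as the mean of 3 libraries (point) and the lowest to highest library (line). MCM10, RFC3, AURKB and CENPF were above Sen(IR) in depleted cells and in depleted cells with mtDNA, and below it in both groups with acetate.

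The largest rises among genes of at least 5 CPM included transcriptional regulators, a Notch ligand and noncoding RNAs. ID1, an inhibitor of differentiation factors and a target of BMP signals, was at 1.13, 1.61 and 1.72 CPM in Sen(IR) and 28.8, 29.9 and 17.3 CPM after depletion (log2 fold change 4.14 ± 0.32, adjusted p = 1.58e-10). NFATC2, a calcium-regulated transcription factor, was at 2.09, 2.07 and 2.55 CPM in Sen(IR) and 29.1, 32.7 and 25.005 CPM after depletion (log2 fold change 3.70 ± 0.17, adjusted p = 4.71e-14). FOS, an immediate early factor, was at 0.775, 0.729 and 0.654 CPM in Sen(IR) and 7.11, 7.6 and 6.71 CPM after depletion (log2 fold change 3.30 ± 0.15, adjusted p = 2.40e-14), and its relative FOSB rose by a similar amount (log2 fold change 3.14 ± 0.20, adjusted p = 9.16e-12). All their depleted libraries lay above all Sen(IR) libraries. DLL4, a Notch ligand, was at 3.31, 2.49 and 2.45 CPM in Sen(IR) and 19.7, 19.7 and 18.2 CPM after depletion (log2 fold change 2.77 ± 0.11, adjusted p = 2.59e-15). LINC01164, a long noncoding RNA on chromosome 10, had the largest rise among them, at 0.329, 0.384 and 0.413 CPM in Sen(IR) and 17.8, 16.9 and 12.6 CPM after depletion (log2 fold change 5.41 ± 0.28, adjusted p = 2.02e-13). The others of the 15 largest were FAM196B, FAM167A, AL354719.2, ZNF501, FAM129A, GRIA4, MCTP1, LYPD1 and EXO1, with log2 fold changes from 2.73 to 3.59. Of genes abundant per length, TFPI2, a secreted protease inhibitor, rose from a mean of 403 to 2419.7 TPM (log2 fold change in the fit of counts 2.16 ± 0.087, adjusted p = 4.25e-15). The TPM levels carry the upward shift of TPM (median log2 ratio 0.453 over all genes), which the fold change does not.

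Growth factor and WNT genes are given by single members, since the lists' shares were not read as results beside 34.0% higher and 31.3% lower among all genes. Growth factors and their binding proteins were lower in 14 of 29 tested (1 of them higher in TPM) and higher in 10 (median -0.29). IGFBP3, which binds insulin-like growth factors, was at 6002, 5950.4 and 4487 CPM in Sen(IR) and 509, 554 and 448 CPM after depletion (log2 fold change -3.44 ± 0.14, adjusted p = 8.88e-15). Every depleted library lay below every Sen(IR) library. The WNT list had 8 lower and 4 higher of 17 tested. WNT2, a ligand, was at 9.27, 8.33 and 7.68 CPM in Sen(IR) and 1.004, 0.555 and 1.02 CPM after depletion (log2 fold change -3.33 ± 0.19, adjusted p = 8.71e-13), LEF1, a nuclear effector, at 3.62, 3.45 and 3.48 CPM in Sen(IR) and 19.9, 20.96 and 21.4 CPM after depletion (log2 fold change 2.55 ± 0.087, adjusted p = 3.88e-16), and DKK1, a secreted inhibitor, at 16.4, 16.5 and 13.5 CPM in Sen(IR) and 59.2, 60.02 and 51.5 CPM after depletion (log2 fold change 1.88 ± 0.095, adjusted p = 1.68e-13). Circadian clock genes were higher in 12 of 16 tested and lower in 3, all higher in TPM (median 0.58), led by NR1D1, the haem-sensing repressor REV-ERBα, at 8.52, 10.8 and 9.71 CPM in Sen(IR) and 45.6, 42.6 and 40.5 CPM after depletion (log2 fold change 2.16 ± 0.086, adjusted p = 3.64e-15).

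The remaining stress and iron lists held calls in both directions, as did all genes (34.0% higher and 31.3% lower), and the antioxidant shares lay near these. NRF2 antioxidant targets had 7 higher and 8 lower of 20 (median 0.073), from AKR1C1 (-2.40), an oxidoreductase with close relatives, counted from uniquely mapped reads only and so uncertain, to SLC7A11. Hypoxia targets had 10 lower and 6 higher of 19, iron genes 8 lower and 3 higher of 16, and cytosolic ribosomal proteins 44 lower and 11 higher of 79 (median -0.23). Of the lower ones, 4 of 8 antioxidant targets, 3 of 10 hypoxia targets, 4 of 8 iron genes and 24 of 44 ribosomal proteins were higher in TPM. TFRC, which imports iron, was at 507, 512 and 441 CPM in Sen(IR) and 827, 864 and 841 CPM after depletion (log2 fold change 0.79 ± 0.059, adjusted p = 8.26e-11), and SLC11A2, which carries iron across membranes, at 146, 144 and 129 CPM in Sen(IR) and 51.9, 54.4 and 54.002 CPM after depletion (log2 fold change -1.39 ± 0.049, adjusted p = 6.19e-16).

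Inflammatory genes made up much of the deepest falls and are given in brief. CXCL1, a neutrophil chemokine, was at 141, 152 and 127 CPM in Sen(IR) and 0.167, 0.151 and 0 CPM after depletion (log2 fold change -10.19 ± 0.23, adjusted p = 1.11e-18), and C3, the central complement component, at 294, 291 and 255 CPM in Sen(IR) and 0.613, 0.328 and 0.508 CPM after depletion (log2 fold change -9.19 ± 0.13, adjusted p = 1.02e-22). EHF, an epithelial transcription factor, was at 26.7, 29.5 and 28.4 CPM in Sen(IR) and 0.279, 0.278 and 0.2903 CPM after depletion (log2 fold change -6.63 ± 0.20, adjusted p = 6.05e-17), and SLCO2B1, an organic anion transporter, at 7.84, 7.79 and 7.41 CPM in Sen(IR) and 0.112, 0.0505 and 0 CPM after depletion (log2 fold change -6.96 ± 0.35, adjusted p = 1.26e-13). All 4 were under 1 CPM in every depleted library. RELA, an NF-κB subunit, rose instead, at 70.1, 69.4 and 67.1 CPM in Sen(IR) and 105, 104 and 99.004 CPM after depletion (log2 fold change 0.58 ± 0.042, adjusted p = 7.99e-11), as did CD55, which protects cells from complement (log2 fold change 0.79 ± 0.072, adjusted p = 2.55e-09).

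**Figure D5:**
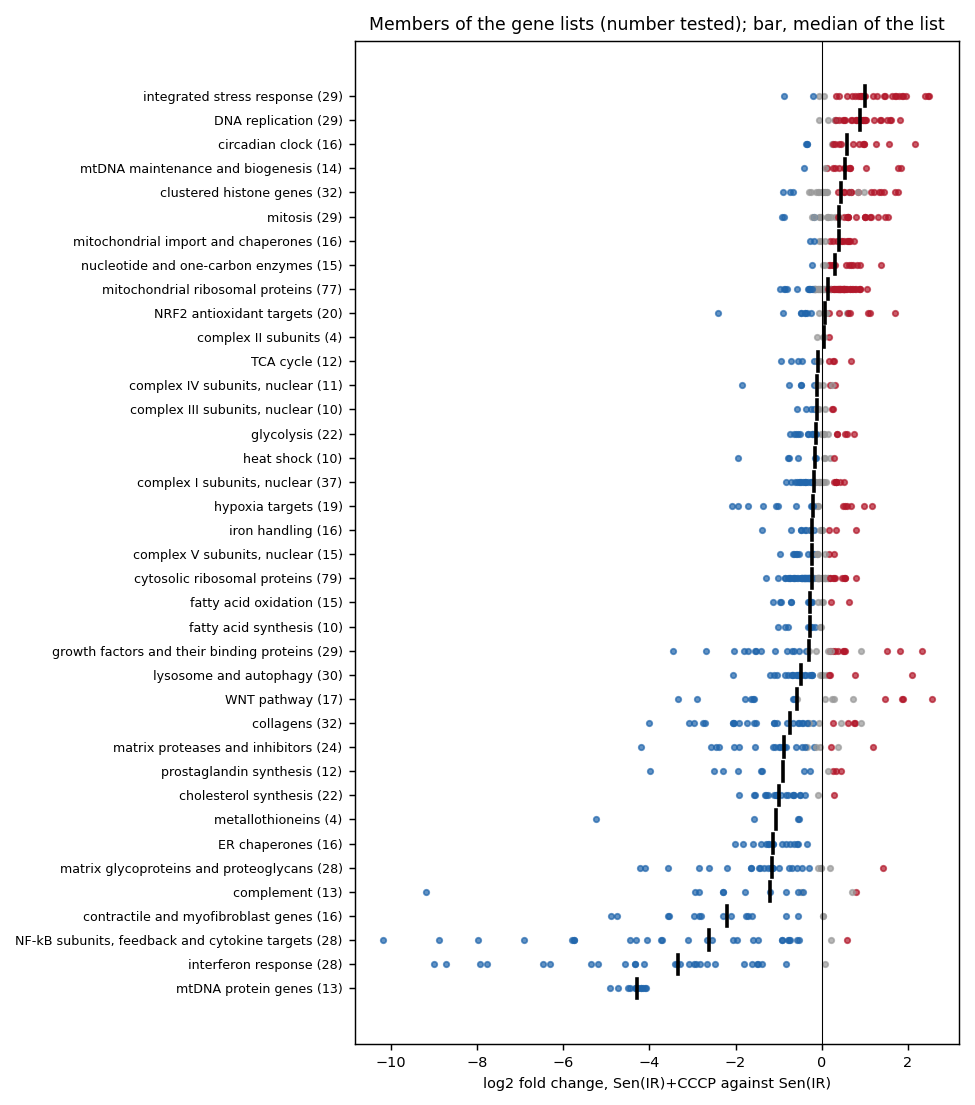
Log2 fold change of every tested member (point; red higher, blue lower, grey not called) of the gene lists drawn, in order of the list's median (black bar), with the number tested. The integrated stress response (median 1.01) and DNA replication (0.89) stand at the top, and the contractile (-2.20) and mtDNA (-4.28) genes near and at the bottom.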

How the data were processed

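Poly(A) RNA of 18 libraries in 6 groups of 3 was sequenced as paired reads of 150 bases. Per the labels, the authors used Trimmomatic 0.36 for trimming and STAR 2.5.2b with GRCh38 for alignment, and deposited raw counts per gene from featureCounts of Subread 1.5.2, without normalization. The authors also deposited TPM, which correct for length and depth. Reads mapped to 1 place entered the counts. Whether these libraries were counted by strand is not given in the sources used here, so overlapping and antisense genes may not be told apart. Every column was mapped to a sample by its label.

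edgeR 4.0.16 in R 4.3.3 fitted the quasi-likelihood model over all 18 libraries, 1 mean per group, with TMM scaling, filterByExpr by group and no replicate block. Sen(IR)+CCCP was contrasted with Sen(IR), p-values were adjusted over 16994 genes by Benjamini-Hochberg and called under 0.05, and the rule of size was 2-fold. On simulated counts for this contrast over 16388 genes, 99 of 100 changes of 2-fold and 100 of 100 of 4-fold were recovered, with 5 false calls among 16188 unchanged genes. The simulation gave all genes 1 common spread and changed 200 of them, as many up as down. It does not show how the fit performs where 65.2% of genes are called and Sen(IR) replicate 3 stands apart. Genes named were the 15 largest rises and falls with non-overlapping groups and at least 5 CPM, the 10 largest changes in TPM, up to 4 members at the ends of each list, state genes and the mtDNA genes, of which the text gives a part. Others, among them ASNS, ATF3, CEBPG, CHAC1, DDIT3, PHGDH, AARS, HSPA5, CALR, CANX, PDIA6, CRELD2, ACTA2, MYLK, COL6A3, POSTN and FBN1, were chosen after their values were seen. The members and lists were chosen with earlier results of these data known. Alternatives were DESeq2 1.42.0 (test and size factors), other filters, fewer libraries and a replicate block. Some genes are not reported here.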

Additional observations from a re-analysis of the deposited data

How the results depend on the processing

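Counts of calls kept their size under most alternatives. Leaving out 1 library of the contrast gave 5441 to 5667 genes higher, 4952 to 5198 lower, 1268 to 1398 higher by 2-fold and 1826 to 1880 lower by 2-fold. With DESeq2's test 5548 genes were higher and 5402 lower. No gene called in the main fit changed sign under any alternative fit. A nominal p under 0.05 with an absolute log2 fold change over 0.5 in DESeq2 gave 3369 higher and 3646 lower against 5776 and 5312, with the tool, the p-value and the size all changed. At least 10 counts in each of the 6 libraries left 858 genes higher by 2-fold against 1307, with fewer genes tested (14219). With no filter the endothelial marker list had a median of -1.36 over 4 genes, against 0.30 over 2. On the log2 CPM scale VIM was lower after depletion (-0.12) but higher in TPM. Over all tested genes the median log2 ratio of TPM was 0.453, against 0.026 in the fit, so a TPM level is read relative to that shift. Same-numbered libraries of the groups did not deviate together (correlations 0.083, 0.0461 and -0.0152), so the numbers were not taken as pairs, and a fit with the replicate block called 5774 genes higher and 5301 lower. Replicate 2 of the group with acetate and mtDNA stood apart from its group, and without it, a choice made after seeing the data, 6054 were higher and 5319 lower. Of the genes named above, the calls of VIM, CDKN1A and EBP, all changed by under 0.30 on the log2 scale, were lost under at least 1 alternative. So were the calls of the markers VWF and DES, whose log2 fold changes in the main fit were larger (-0.97 and -2.97). Both markers lay under 1 CPM in every library of the contrast. Genes near or under 1 CPM rest on few counts.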

Other observations

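Several gene lists outside the sections above moved as follows, beside 34.0% higher and 31.3% lower among all genes. Clustered histone genes, of which 32 of 66 were tested in these poly(A) libraries, were higher in 14 and lower in 3 (median 0.45), and with uniquely mapped reads only their near-identical copies are uncertain. Of 4 tested metallothioneins, which buffer zinc and copper, all 4 were lower (median -1.07). Prostaglandin genes were lower in 8 of 12 and higher in 3 (median -0.90), with PTGIS, prostacyclin synthase, at a log2 fold change of -3.98. The TCA cycle was mixed, as were all genes, with 5 lower and 4 higher of 12. Its members ran from OGDH (-0.95) to IDH3B (0.67), which encode subunits of different dehydrogenases. Interferon response genes were lower in 27 of 28 and higher in none (median -3.33), NF-κB genes lower in 26 of 28 (median -2.61) and complement genes lower in 10 of 13 (median -1.20). Of the lower ones, 2 of 8 prostaglandin genes, 1 of 5 TCA cycle genes and 1 of 10 complement genes had a higher mean TPM. All 14 tested mitochondrial tRNA genes were lower (median -4.49). The sterol element was found in the promoter of 1 of 17 cholesterol genes (5.88%) and in 1.20% of promoters of tested genes, the kappaB element in 58.3% and 8.87%, and the interferon element in 75% and 3.56%, for their own lists and for tested genes.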
